A study of Mus musculus with 12 samples.

Results

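Acvrl1 and 9 other genes of transforming growth factor beta (TGF-beta) signaling were followed in T helper 17 (Th17) and T helper 1 (Th1) cells of the mouse that carried or lacked the glucose transporter GLUT3. The 10 genes, out of 45703 in the tables, were taken by their symbols. They comprise the type I receptors Acvrl1, Acvr1, Bmpr1a and Tgfbr1, the type II receptors Tgfbr2, Acvr2a and Bmpr2, the co-receptor Tgfbr3, the ligand Tgfb1 and the inhibitory SMAD Smad7. Acvrl1 was chosen by its measured TPM, which was lower in GLUT3-deficient cells and varied widely in wild type, so its levels and its genotype differences are given as a description, with no test.

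Both lineages were measured in wild-type and in GLUT3-deficient form, which makes 4 groups with 3 libraries each. The deficient cells came from the genotype Slc2a3-fl/fl Cd4-cre, in which Cre driven by Cd4 removes the floxed part of Slc2a3, the gene of GLUT3, in T cells from the thymus onward. Both genotypes were on the C57BL/6 background, and naive T cells of every group had been activated through CD3 and CD28 with polarizing cytokines and cultured for 3 days. The labels do not give the cytokines, the ages of the mice, the alleles of the wild-type mice beyond that name, or whether replicates were separate animals or cultures. The spread that the p-values measure is thus one between libraries and may be technical. Values are TPM, transcript levels that scale reads by gene length, so that levels can be compared between genes.

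Ligands of the TGF-beta family act through pairs of type II and type I receptor kinases on the cell surface. The type II receptor binds the ligand and activates the type I receptor, which phosphorylates SMAD transcription factors. TGF-beta itself signals through Tgfbr2 and Tgfbr1 to Smad2 and Smad3, while bone morphogenetic proteins (BMPs) signal through type I receptors such as Acvrl1, Acvr1 and Bmpr1a to Smad1 and Smad5. In CD4 T cells, TGF-beta restrains activation and, together with inflammatory cytokines, supports the differentiation of Th17 and regulatory T cells. Acvrl1, also called ALK1, is known mainly from endothelial cells, where it responds to BMP9 and BMP10.

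The promoters of 3 members that the results turn on are shown so that the genes of the TGF-beta ligand and of its receptor pair can be compared by sequence. Each is the 250 bases before the annotated start of the gene, from RefSeq on GRCm38.p6, written 5′ to 3′ on the gene's strand. Capitals mark GGGCGG, the core of a GC box, read on either strand (CCGCCC on the other).
Tgfbr1, chr4:47352972-47353221, plus strand: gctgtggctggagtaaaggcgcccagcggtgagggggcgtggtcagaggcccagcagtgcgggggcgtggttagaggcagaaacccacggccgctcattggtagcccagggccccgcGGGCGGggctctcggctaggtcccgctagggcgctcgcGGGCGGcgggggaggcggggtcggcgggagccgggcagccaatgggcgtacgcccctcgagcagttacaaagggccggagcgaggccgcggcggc
Tgfbr2, chr9:116175364-116175613, minus strand: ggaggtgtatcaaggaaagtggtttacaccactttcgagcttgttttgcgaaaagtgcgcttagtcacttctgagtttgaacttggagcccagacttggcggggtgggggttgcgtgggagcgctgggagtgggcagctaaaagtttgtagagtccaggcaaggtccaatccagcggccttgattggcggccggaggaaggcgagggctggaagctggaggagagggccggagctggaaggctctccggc
Tgfb1, chr7:25686752-25687001, plus strand: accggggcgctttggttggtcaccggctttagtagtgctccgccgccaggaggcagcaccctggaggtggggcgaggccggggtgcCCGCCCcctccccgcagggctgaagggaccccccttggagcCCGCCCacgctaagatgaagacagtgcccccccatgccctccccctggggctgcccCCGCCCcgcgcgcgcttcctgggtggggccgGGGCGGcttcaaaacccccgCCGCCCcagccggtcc
The Tgfbr1 promoter held 2 GC box matches and the Tgfb1 promoter 5, while the Tgfbr2 promoter held none. Guanine and cytosine made up 74.8%, 58.4% and 75.2% of the Tgfbr1, Tgfbr2 and Tgfb1 windows, against a median of 52.4% over the 32851 promoter windows of the table. A GC box match occurred in 32.7% of those windows. The AP-1 motif TGANTCA, also read on both strands, was in none of these 3 windows and in 6.75% of all windows. The short SMAD-binding motif CAGAC, read on both strands and left in lower case, occurred once in the Tgfbr2 window and in neither of the other two, and was found in 42.2% of all windows. A second Tgfbr1 window, inside the gene at chr4:47385966-47386215, held 0 GC box matches and 1 CAGAC match, with 52.8% guanine and cytosine. It is not shown. The letters of no motif contain those of another. A match describes letters and does not show that a factor binds there.

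No GLUT3-deficient library reached the Slc2a3 level of any wild-type library of its lineage. It stood at 379, 109 and 44.6 TPM in Th17 wild-type replicates 1, 2 and 3 and at 5.14, 18.8 and 3.30 TPM in the deficient ones. Its Th1 values were 398, 95.6 and 64.7 TPM for wild type and 6.79, 4.49 and 7.97 TPM for GLUT3-deficient libraries. Reads were counted over the whole gene, so what remains can include transcripts without the deleted part. Each library held 16596283 to 28496606 reads. All 7 listed CD4 T cell markers were at 1 TPM or more in at least 1 library of every group, and their summed level was 2412 to 4111 TPM. The 7 Th17 markers summed to 498 to 1192 TPM in the Th17 libraries and 23.9 to 140 TPM in the Th1 libraries. The 7 Th1 markers summed to 844 to 9247 TPM in Th1 and 87.0 to 439 TPM in Th17. These sums also differed by genotype. Th1 markers were at 844 to 1424 TPM in Th1 wild type and 7359 to 9247 TPM in Th1 deficient cells. In Th17 they overlapped, at 87.0 to 147 against 133 to 439 TPM. Th17 markers were at 23.9 to 27.3 against 64.5 to 140 TPM in Th1. In Th17 they overlapped, at 662 to 1192 against 498 to 676 TPM. The part of this marker shift in the receptor results was not tested.

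One library stood apart from its group. The median gene of Th17 GLUT3-deficient replicate 2 lay 0.62 from its group on the log2 scale, against 0.14 to 0.42 in the other 11 libraries. This library also had the highest level of 8 of the 10 genes among the 12 libraries. The Th17 genotype results of the 10 genes, where they could be fitted, and the counts of most gene lists are therefore given with and without it.

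Acvrl1 (gene ID 11482) lies on chromosome 15 from 101128522 to 101145336 of GRCm38.p6, on the plus strand, and no other annotated gene overlaps it. In Th17 wild type it stood at 141, 27.9 and 16.4 TPM in replicates 1, 2 and 3, from 5706, 1183 and 788 reads. In Th17 GLUT3-deficient cells it stood at 0.553, 0.577 and 0.318 TPM, from 27, 15 and 19 reads. The groups did not overlap, and the lowest wild-type library was 28.4-fold above the highest deficient one. Wild-type libraries averaged 61.7 ± 68.8 TPM and deficient ones 0.483 ± 0.143 TPM (SD, n = 3 each), and the difference of log2(TPM + 1) was -4.81 ± 0.72 (SE). Without the deficient replicate 2 that difference was -4.86.

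Th1 cells showed the same direction at lower wild-type levels. Acvrl1 stood at 61.9, 12.3 and 10.3 TPM in Th1 wild type and at 2.07, 2.02 and 1.75 TPM in Th1 GLUT3-deficient cells. The lowest wild-type library was 4.95-fold above the highest deficient one, and the log2 difference was -2.84 ± 0.56. As a ratio of geometric means, wild type was 85.9-fold above deficient in Th17 and 10.2-fold above in Th1. The offset of 1 TPM understates such ratios for a gene this low, and the Th17 log2 difference was -3.09 with an offset of 5 TPM and -6.52 with voom on recovered reads.

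The wide spread of Acvrl1 was a feature of the wild-type libraries. In both lineages replicate 1 was the highest, 8.61-fold above the lowest library in Th17 and 6.03-fold in Th1. Its SD on the log2 scale was 1.58 in Th17 wild type, where 14 of 13417 genes varied more, and 1.37 in Th1 wild type, where 56 of 13244 did. In the deficient groups it was 0.14 and 0.09. Slc2a3 was ordered in the same way: it too was highest in wild-type replicate 1 and lowest in replicate 3 of both lineages. Acvrl1 amounted to 37.2%, 25.5% and 36.7% of the Slc2a3 level in the 3 Th17 wild-type libraries and to 15.6%, 12.9% and 15.8% in the Th1 ones. A list of 24 hypoxia-responsive genes also had its highest sums in replicate 1 of both wild-type groups, at 19480 TPM in Th17 and 17440 TPM in Th1, where the lowest wild-type sums were 10980 and 9593 TPM. In the deficient groups that sum was 9673 to 10720 TPM in Th17 and 8377 to 10810 TPM in Th1. The part of this list in the Acvrl1 values was not tested.

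**Figure D1:**
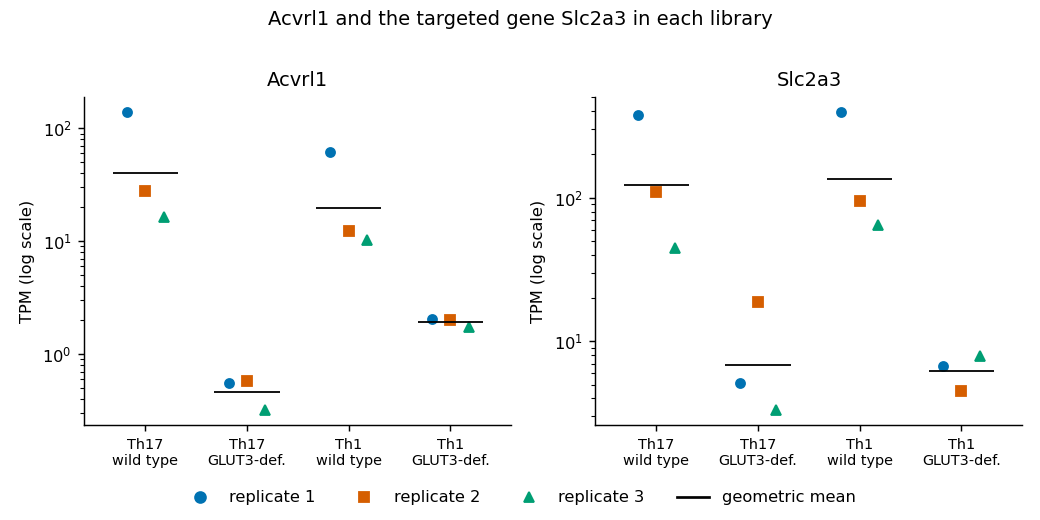
Acvrl1 (left) and Slc2a3 (right) in TPM on a log axis, 1 point per library with its replicate number by color and shape, and a line at the geometric mean of each group. For both genes every wild-type library lies above every deficient library, and wild-type replicate 1 is the highest of each lineage, at 141 and 61.9 TPM for Acvrl1.

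Endothelial markers were measured because Acvrl1 is best known from endothelium. Of 13 such markers, at most 2 in the wild-type and Th1 deficient groups and 3 in the Th17 deficient group reached 1 TPM in any library, and Cdh5, Emcn and Robo4 were at 0 in all 12 libraries. The list summed to 26.2 to 33.2 TPM in Th17 wild type and 18.2 to 79.2 TPM in Th17 deficient cells, and to 16.0 to 20.1 TPM and 15.8 to 19.5 TPM in Th1. Of the 2 markers tested, 1 was lower and 1 higher. Pecam1, an adhesion molecule that T cells also express, was higher in Th1 with limma's test, at 13.1 ± 1.82 against 8.06 TPM (log2 difference 0.66 ± 0.21, adjusted p = 0.0442), and was 0.95 ± 0.61 in Th17 (adjusted p = 0.37). Egfl7, a secreted protein of endothelium, was lower in deficient cells with limma's test, at 3.90 ± 0.07 against 14.0 ± 5.04 TPM in Th17 (log2 difference -1.55 ± 0.33, adjusted p = 0.0366) and at 3.42 ± 0.67 against 9.88 ± 1.42 TPM in Th1 (-1.30 ± 0.18, adjusted p = 0.00115; SD, n = 3). With no filter on low values, limma gave an adjusted p of 0.1 for Pecam1 in Th1. For Egfl7 it gave 0.071 in Th17 and 0.00724 in Th1. In bulk libraries, fewer cells of a type and less RNA per cell cannot be told apart.

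The nearest genes expressed at 1 TPM or more in at least 3 libraries were Slc4a8, which ends 304551 bases before Acvrl1, and Acvr1b, which begins 28736 bases after it. Acvr1b encodes another type I receptor, for activins. Neither differed by genotype in Th17 past the threshold. The log2 difference was 0.46 for Slc4a8 (limma, adjusted p = 0.497) and 0.21 for Acvr1b (adjusted p = 0.574). Acvr1b stood at 0.428 to 1.18 TPM over all 12 libraries.

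The genes whose levels ran most like Acvrl1 over the 12 libraries were Asns, Zfp330, Got1, Angptl6 and Mthfd2, with Pearson r of log2(TPM + 1) of 0.979, 0.974, 0.971, 0.965 and 0.964 among 8288 genes. Spearman's rho was 0.972 for Asns and 0.958 for Mthfd2. Asns makes asparagine, Got1 interconverts aspartate and oxaloacetate, and Mthfd2 is an enzyme of mitochondrial folate metabolism. Asns was 306 ± 68.8 TPM in Th17 wild type, 74.4 ± 4.37 in Th17 deficient, 234 ± 98.3 in Th1 wild type and 93.1 ± 3.58 in Th1 deficient cells (SD, n = 3 each). Slc2a3 ranked 16th by r, at 0.943. These correlations span genotypes that lie apart and share their libraries, so any gene that is lower in deficient cells scores high.

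Over the 6 wild-type libraries alone, other genes led. Pqlc3, Slc48a1, Dusp4, Spg21 and Smyd3 had r of 0.998, 0.998, 0.997, 0.997 and 0.996 among 7852 genes. Dusp4, a phosphatase of MAP kinases, stood at 96.2, 33.4 and 28.1 TPM in Th17 wild-type replicates 1, 2 and 3 and at 56.4, 22.5 and 20.3 TPM in the Th1 ones. Unlike Acvrl1, it was not lower in deficient cells, at 126 ± 61.3 and 84.2 ± 9.43 TPM (SD, n = 3 each). Of the other 9 genes, computed without a minimum level, Smad7, Bmpr1a and Tgfbr2 had r with Acvrl1 of 0.968, 0.92 and 0.907 in wild type, and the other 6 lay between -0.461 and 0.538. Such values were common over these 6 libraries, in which Acvrl1 was highest in replicate 1 of both lineages. Tgfbr2 ranked 416th among the 7852 genes, and Slc2a3 ranked 496th at r of 0.892. They thus do not single out these genes. Over all 12 libraries r was below 0 for all 9, from -0.826 for Acvr1 to -0.157 for Bmpr1a.

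**Figure D2:**
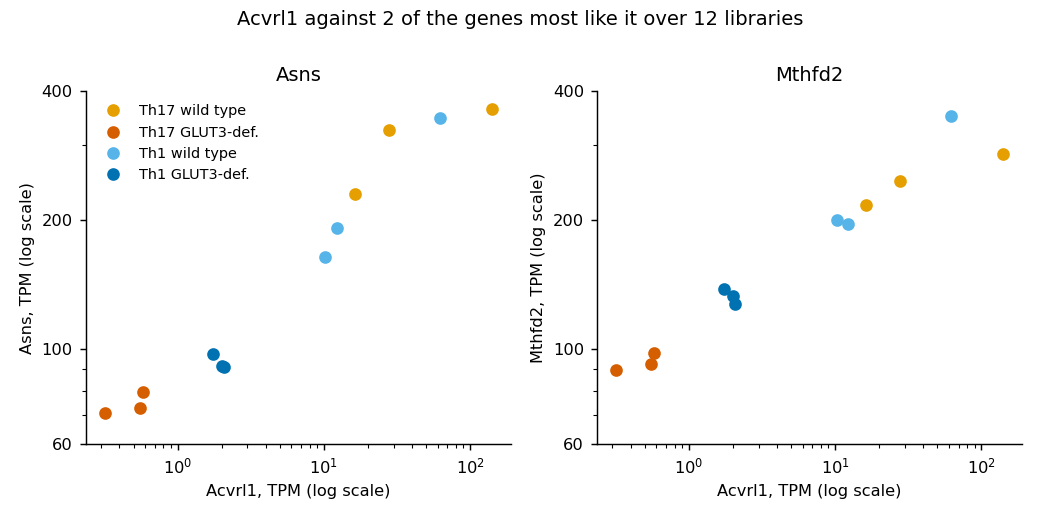
Asns (left) and Mthfd2 (right) against Acvrl1, each point 1 library, both axes in TPM on a log scale, with groups by color. The 6 wild-type libraries lie above the 6 deficient ones on both axes, and Acvrl1 covers a wider range than either gene.

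The other 9 genes stood mostly on the other side of wild type from Acvrl1 in these libraries, with 5 of them past the test in Th1 and 0 in Th17. In Th17, 7 of the other 9 genes had every deficient library above every wild-type library and 2 overlapped, where 18.5% of the 13823 genes tested stood apart in that direction and 36.7% in either. In Th1 it was again 7 of 9, where 26.3% of 13487 genes tested stood apart in that direction and 47.1% in either. Bmpr2 in Th17, and Acvr1 and Acvr2a in Th1, count among the 7 but not among the genes tested. The 2 shares thus rest on unlike sets. Of the genes that passed the filter on low values, 0 of 8 passed limma's test in Th17 and 5 of 6 passed it in Th1, all higher, where 7.30% of tested genes passed in Th17 and 31.3% in Th1. At an unadjusted p under 0.05, 4 of 8 passed in Th17. With voom on recovered reads 1 of 8 passed in Th17 and 4 of 6 in Th1. The median log2 difference was 1.39 over the 8 and 0.71 over the 6, against 0.04 and 0.03 over all genes tested. Without Th17 deficient replicate 2 the Th17 median was 0.62, against -0.11 over all genes. The 8 genes fitted there include Acvrl1 and leave out Acvr1. Bmpr2 was not tested in Th17, nor Acvr1, Acvr2a and Bmpr2 in Th1, since they did not reach 1 TPM in 3 libraries. A gene that reached it only through the deficient group had to be higher there, as Acvr1 did in Th17 and Tgfbr1 in Th1, so these counts and medians describe the genes that passed and support no statement on all 9. In a fit of all 12 libraries with 1 shared estimate of the spread, 3 of 8 passed in Th17 and 0 of 8 in Th1.

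Some of the listed markers of other cell types stood higher in GLUT3-deficient libraries too. Over all genes tested, 4.60% were higher and 2.70% lower in Th17, and 17.6% higher and 13.7% lower in Th1. Without Th17 deficient replicate 2 it was 7.76% higher and 8.44% lower in Th17. The counts below are to be read against these shares. Of 4 tested markers of gamma delta T cells 4 were higher in deficient cells of both lineages, led by Trdc, the delta chain constant region, at 3.55 ± 0.26 in Th17 (limma, adjusted p = 0.0013) and 3.17 ± 0.26 in Th1 (adjusted p = 0.00011) on the log2 scale. The 5 listed markers summed to 17.4 to 20.2 TPM in Th17 wild type and 165 to 255 TPM in Th17 deficient cells, and to 13.9 to 33.4 and 171 to 268 TPM in Th1. Without Th17 deficient replicate 2 all 4 still passed in Th17. Of 10 myeloid markers, 3 of 5 tested were higher in Th17 (3 of 4 without that replicate) and 2 of 3 in Th1, with sums of 12.7 to 14.7 against 44.4 to 67.0 TPM in Th17 and 11.01 to 14.2 against 26.9 to 47.7 TPM in Th1. The myeloid markers Csf1r and Adgre1 were at 0.413 TPM or less throughout. Of 8 markers of CD8 T cells and natural killer cells, 2 of 6 tested were higher in Th17 (3 of 5 without replicate 2), and 4 of 6 were higher and 2 lower in Th1. Klrk1 and Klrc1, receptors of natural killer cells, were higher in both lineages, while Cd8a and Cd8b1 were lower in Th1. Their sums were 49.1 to 64.2 against 90.7 to 107.9 TPM in Th17 and 62.1 to 78.5 against 194.7 to 283 TPM in Th1. Of 7 B cell markers 1 of 5 tested, Igkc, was higher in Th17 (1 of 4 without replicate 2), and in Th1 it was at an adjusted p of 0.0803 with limma. With no filter on low values the adjusted p of Igkc in Th17 was 0.0721 (limma). The B cell sums were 113.5 to 152.8 against 131.5 to 198.2 TPM in Th17 and 88.05 to 111.9 against 68.3 to 475 TPM in Th1. Of 7 stromal markers, Lum was higher in both lineages and Dcn in Th1, with sums of 1.45 to 2.18 against 6.28 to 8.43 TPM in Th17 and 1.86 to 2.81 against 6.31 to 12.1 TPM in Th1. With no filter the adjusted p of Lum in Th17 was 0.0607 (limma). Dcn, and Eomes of the CD8 and natural killer list, entered the Th1 fit only through the deficient group, which fixes their direction. With no filter their adjusted p was 0.00242 and 0.00964 (limma). Immediate early genes, which activation through the T cell receptor induces, were higher for 6 of 16 tested in Th17 (8 higher and 1 lower of 16 without replicate 2), and for 14 of 17 in Th1 with 1 lower. The part of these cells and of activation in the receptor results was not tested.

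Tgfbr1, the type I receptor of TGF-beta, is the receptor that Tgfbr2 activates. It lies on chromosome 4 from 47353222 to 47414926, on the plus strand. In Th1 wild type it stood at 0.845, 0.465 and 0.780 TPM and in Th1 deficient cells at 3.24, 3.00 and 3.72 TPM, so the groups stood well apart. The means were 0.697 ± 0.203 and 3.32 ± 0.365 TPM (SD, n = 3 each), with a log2 difference of 1.35 ± 0.17 (limma, adjusted p = 0.000678). It entered this fit only through the deficient libraries, and the adjusted p was 0.00498 in the fit with no filter on low values. In Th17 wild type it stood at 1.06, 1.89 and 1.30 TPM and in Th17 deficient cells at 6.53, 34.3 and 6.08 TPM. There too the groups were apart, but the deficient replicate 2 was far above its group, and the log2 difference of 2.37 ± 0.62 missed the threshold (adjusted p = 0.0636). Without that library the difference was smaller and passed, at 1.61 ± 0.22 (adjusted p = 0.00443). It also passed with the replicate number as a block (adjusted p = 0.0164).

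Tgfbr2, the type II receptor that binds TGF-beta, lies on chromosome 9 from 116087695 to 116175363, on the minus strand. It was the highest of the receptors other than Acvrl1 in all 4 groups. Wild-type Th1 libraries had 15.4, 7.38 and 7.02 TPM, and the deficient ones had 22.9, 24.0 and 25.6 TPM. The wild-type replicate 1 was the highest of its group, as for Acvrl1, and still lay below every deficient library. The means were 9.94 ± 4.75 and 24.2 ± 1.35 TPM (SD, n = 3 each), a log2 difference of 1.28 ± 0.27 (limma, adjusted p = 0.00682). Th17 wild-type libraries held it at 27.4, 18.7 and 11.9 TPM and deficient ones at 36.0, 128.5 and 31.1 TPM. The log2 difference there was 1.47 ± 0.57 (adjusted p = 0.165), and 0.84 ± 0.32 without the deficient replicate 2 (adjusted p = 0.114).

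Tgfbr3, also called betaglycan, presents TGF-beta to Tgfbr2. It lies on chromosome 5 from 107106567 to 107289629, on the minus strand. Its Th1 values were 7.26, 4.70 and 6.64 TPM for wild type and 11.1, 11.3 and 12.1 TPM for GLUT3-deficient libraries. The means were 6.20 ± 1.33 and 11.5 ± 0.546 TPM (SD, n = 3 each), a log2 difference of 0.81 ± 0.18 (limma, adjusted p = 0.0096). Wild-type Th17 libraries had 6.59, 6.12 and 4.19 TPM, and the deficient ones had 8.92, 99.7 and 9.09 TPM. Replicate 2 was 11.1 times the mean of the other 2 deficient libraries, and without it the log2 difference went from 1.72 ± 0.87 (adjusted p = 0.262) to 0.61 ± 0.23 (adjusted p = 0.112).

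Tgfb1, the ligand TGF-beta 1, lies on chromosome 7 from 25687002 to 25705077, on the plus strand. Th1 wild-type libraries held it at 4.97, 6.46 and 5.15 TPM and deficient ones at 7.77, 9.69 and 8.07 TPM, with no overlap. The log2 difference was 0.54 ± 0.17 (limma, adjusted p = 0.0398). Its Th17 values were 8.77, 9.41 and 7.74 TPM for wild type and 7.96, 205 and 7.44 TPM for GLUT3-deficient libraries. Only the deficient replicate 2 departed from the wild-type level, at 26.6 times the mean of the other 2 deficient libraries. Among 13934 genes 1 had a larger log2 excess in that library, and the median gene had an excess of 0.35. The Th17 log2 difference was 1.38 ± 1.15 (adjusted p = 0.494) with that library and -0.15 ± 0.20 (adjusted p = 0.655) without it.

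Smad7, which blocks the type I receptors and is itself induced by TGF-beta, lies on chromosome 18 from 75367365 to 75395935, on the plus strand. Wild-type Th1 libraries had 1.83, 1.09 and 0.879 TPM, and the deficient ones had 2.78, 2.19 and 2.20 TPM. The log2 difference was 0.60 ± 0.20 (limma, adjusted p = 0.0476). Th17 wild-type libraries held it at 2.02, 1.45 and 1.01 TPM and deficient ones at 2.53, 17.7 and 3.13 TPM. The log2 difference was 1.40 ± 0.62 (adjusted p = 0.214), and 0.64 ± 0.23 without the deficient replicate 2 (adjusted p = 0.101). The Th1 calls of Tgfb1 and Smad7 were close to the threshold. With median-of-ratios scaling their adjusted p-values were 0.0529 and 0.0561. Each passed in 4 of 13 alternatives, and in 1 of the 6 that left out a library. Over the alternatives the highest adjusted p was 0.758 for Tgfb1 and 0.476 for Smad7.

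**Figure D3:**
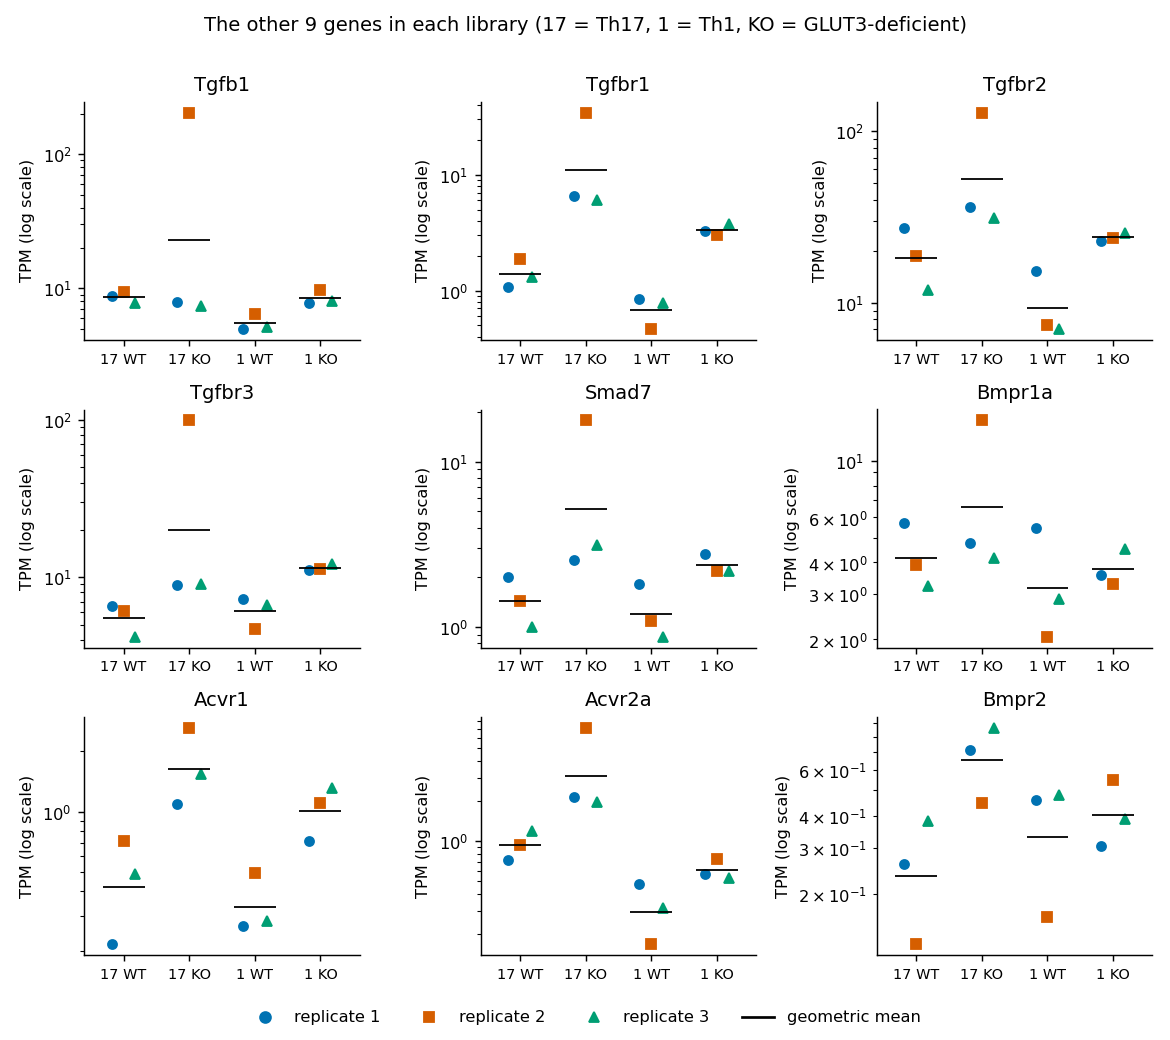
The other 9 genes in TPM on log axes, 1 panel per gene, with 1 point per library and a line at the geometric mean of each group. Th17 GLUT3-deficient replicate 2 (orange square) is the highest point in every panel but that of Bmpr2, reaching 205 TPM for Tgfb1 and 128.5 TPM for Tgfbr2.

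Bmpr1a, a type I receptor of BMPs, lies on chromosome 14 from 34411061 to 34503336, on the minus strand. It stood at 5.73, 3.92 and 3.25 TPM in Th17 wild type, 4.78, 14.4 and 4.15 in Th17 deficient, 5.46, 2.05 and 2.87 in Th1 wild type and 3.58, 3.29 and 4.51 in Th1 deficient cells. The genotypes overlapped in both lineages, with log2 differences of 0.57 (95% interval -0.52 to 1.65; limma, adjusted p = 0.48) in Th17 and 0.17 (95% interval -0.45 to 0.79; adjusted p = 0.675) in Th1. Without the deficient replicate 2 the Th17 difference was 0.07 ± 0.25.

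Acvr1, also called ALK2, is a type I receptor of BMPs and activins on chromosome 2 from 58446438 to 58566828, on the minus strand. It stood at 0.217, 0.713 and 0.486 TPM in Th17 wild-type replicates and at 1.10, 2.62 and 1.53 TPM among the deficient ones. The log2 difference was 0.88 ± 0.26 (limma, adjusted p = 0.0939). Its Th1 values were 0.268, 0.491 and 0.283 TPM for wild type and 0.711, 1.10 and 1.32 TPM for GLUT3-deficient libraries, again with no overlap.

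Acvr2a, a type II receptor of activins, lies on chromosome 2 from 48814109 to 48903264, on the plus strand. It stood at 0.721, 0.940 and 1.19 TPM in Th17 wild-type replicates and at 2.15, 7.10 and 1.96 TPM among the deficient ones. The log2 difference was 1.12 ± 0.41 (limma, adjusted p = 0.144), and 0.65 ± 0.20 without the deficient replicate 2 (adjusted p = 0.0586). Wild-type Th1 libraries had 0.474, 0.167 and 0.316 TPM, and the deficient ones had 0.563, 0.732 and 0.530 TPM. It overlaps Orc4, a gene on the opposite strand at 7.73 to 17.7 TPM, by 441 bases. Strand is not marked in these libraries, and reads of the overlap cannot be told apart. Genes on the opposite strand of Acvr1, Tgfbr1, Tgfbr2, Tgfbr3 and Smad7 were at 0.517 TPM or less.

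Bmpr2, the type II receptor of BMPs and the partner of Acvrl1 in endothelium, lies on chromosome 1 from 59764279 to 59878081, on the plus strand. It was the lowest of the 10 genes in Th17 wild type, at 0.262, 0.129 and 0.383 TPM. It stood at 0.714, 0.447 and 0.864 TPM in Th17 deficient cells, above every wild-type library. In Th1 the genotypes overlapped, with 0.460, 0.164 and 0.479 TPM for wild type and 0.307, 0.547 and 0.388 TPM for deficient libraries. It rested on 16 to 151 reads per library over the 12 libraries.

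**Figure D4:**
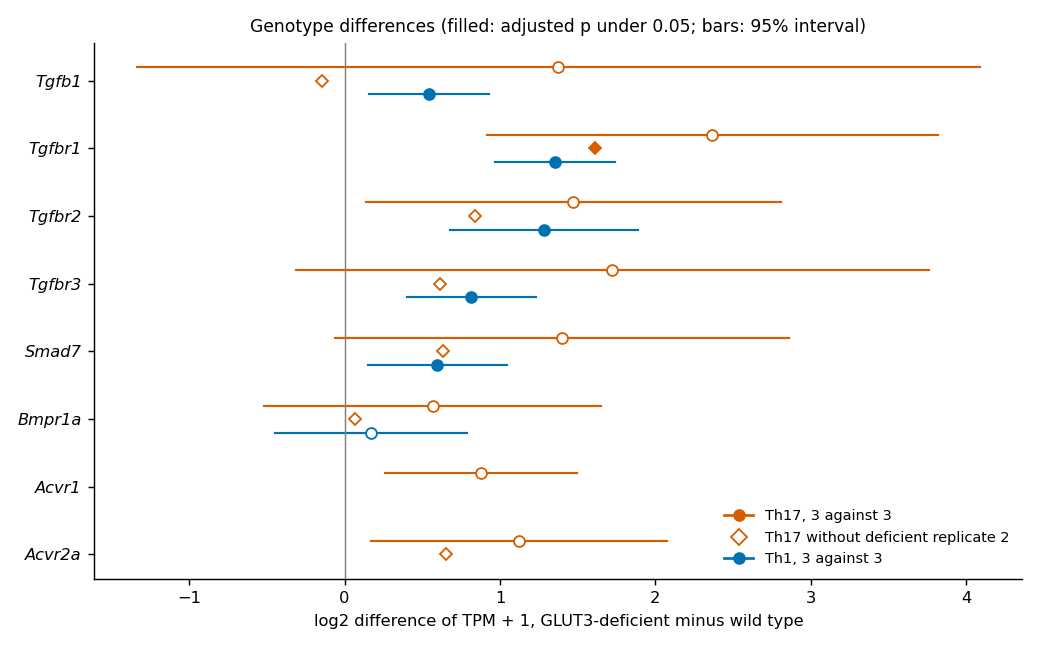
Differences of log2(TPM + 1), GLUT3-deficient minus wild type, with 95% intervals from limma for Th17 (orange circles) and Th1 (blue circles), and the Th17 difference without deficient replicate 2 (diamonds), for the genes tested; without that library Acvr1 was not tested. Filled points passed at an adjusted p of 0.05, and only Tgfb1 lies below 0 in any of them, at -0.15 without that library.

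The genotype differences were not shown to differ between lineages. In the model of all 12 libraries the interaction was called for 0 of 8 genes, where 0.638% of 14579 genes were called. At an unadjusted p under 0.05 limma passed 0 of them, and voom called 0. The adjusted p ranged from 0.948 to 1. The intervals were wide, from -0.48 to 2.51 for Tgfbr1 and from -1.96 to 3.62 for Tgfb1 on the log2 scale.

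The order of levels changed with genotype. Acvrl1 had the highest mean of the 10 genes in both wild-type groups, ahead of Tgfbr2, although their libraries overlapped. It was the lowest of the 10 in Th17 deficient cells, where its libraries overlapped those of Bmpr2, and ranked 7 of 10 in Th1 deficient cells. In Th1 deficient cells the order was Tgfbr2, Tgfbr3, Tgfb1, Bmpr1a, Tgfbr1, Smad7, Acvrl1, Acvr1, Acvr2a and Bmpr2. There each of the first 3 was clear of the next, while Bmpr1a and Tgfbr1 overlapped, as did Acvr1 and Acvr2a and then Acvr2a and Bmpr2. In Th17 wild type the order was Acvrl1, Tgfbr2, Tgfb1, Tgfbr3, Bmpr1a, Smad7, Tgfbr1, Acvr2a, Acvr1 and Bmpr2, with overlap between Acvrl1 and Tgfbr2, Tgfbr3 and Bmpr1a, Smad7 and Tgfbr1, Tgfbr1 and Acvr2a, and Acvr1 and Bmpr2. In Th1 wild type it was Acvrl1, Tgfbr2, Tgfbr3, Tgfb1, Bmpr1a, Smad7, Tgfbr1, Bmpr2, Acvr1 and Acvr2a, and only Bmpr1a and Smad7 were clear of the next gene. In Th17 deficient cells only Acvr1 was clear of the next gene.

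Lineages were compared for the 9 genes other than Acvrl1. In wild type 0 of 8 tested genes passed limma's test, where 3.63% of 14579 genes did. At an unadjusted p under 0.05 limma passed 0 of them, and voom called 0. The median log2 difference of Th17 from Th1 was 0.40 over the 8, against 0.14 over all genes. That fit shares 1 estimate of the spread over 12 libraries, Th17 deficient replicate 2 among them, and was not run without that library. For Acvr2a, Tgfbr1 and Tgfb1 every Th17 wild-type library lay above every Th1 wild-type library, while the other 6 genes overlapped. Tgfb1 was at 7.74 to 9.41 against 4.97 to 6.46 TPM, with a log2 difference of 0.57 ± 0.90. The wild-type lineages are thus not shown to be alike. In GLUT3-deficient cells 1 of 8 passed, where 5.91% of 14579 genes did, and 3 of 8 had an unadjusted p under 0.05. All 8 differences were above 0 there, with a median of 1.02 against 0.13 over all genes. Without Th17 deficient replicate 2, Tgfbr3 was at -0.32 and Tgfb1 at -0.12. The median was then 0.19 over the 9 genes fitted, which include Acvrl1, against 0.05 over all genes. Acvr2a was 1.40 ± 0.32 higher in Th17 (limma, adjusted p = 0.0234), and 0.93 ± 0.18 higher without Th17 deficient replicate 2 (adjusted p = 0.00676). It reached 1 TPM only in Th17 libraries and entered the fit through them, so its direction was fixed by the filter, and the adjusted p with no filter was 0.0492. The adjusted p was 0.0951, 0.0702 and 0.0819 without Th1 deficient replicates 1, 2 and 3. Tgfbr1 was 1.52 ± 0.48 higher in Th17 (adjusted p = 0.098), and 0.76 ± 0.19 higher without Th17 deficient replicate 2 (adjusted p = 0.03). Without Th17 deficient replicate 3 it was 1.92 higher and passed as well (adjusted p = 0.044). Acvrl1 was lower in every Th17 than in every Th1 deficient library, and its wild-type libraries overlapped between lineages.

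Other genes of the pathway were followed in 7 lists with 93 genes in all. In Th17, 8 of 46 tested genes were higher and 3 lower in deficient cells. In Th1, 19 of 43 were higher and 5 lower. The background in the same direction was 4.60% higher and 2.70% lower in Th17, and 17.6% higher and 13.7% lower in Th1. Without Th17 deficient replicate 2, 13 of 45 were higher and 5 lower in Th17, among them 10 of the 11 called with it, where the background was 7.76% higher and 8.44% lower. The exception, Cdkn2b, was then no longer tested, being below the filter. Of the genes called, 2 of 11 in Th17 and 5 of 24 in Th1 had entered the fit only through the group in which they were higher, which fixes their direction. The median log2 difference over the tested genes was 0.52 in Th17, with deficient replicate 2 in the fit, and 0.34 in Th1. Of the 49 tested for an interaction, the lowest adjusted p was 0.186, for Timp1 (limma). Without Th17 deficient replicate 2, Timp1 passed limma's test for the interaction at 2.14 (adjusted p = 0.01). Nrros at -1.37 (adjusted p = 0.026) and Bmp2 at -1.08 (adjusted p = 0.033) passed there too, where 1.19% of 14349 genes did. Bmp2 entered that fit only through the Th1 deficient libraries, so its direction was fixed by the filter.

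Among other receptors and co-receptors, Lrrc32, which holds latent TGF-beta on the cell surface of regulatory T cells, was higher in both lineages. It stood at 9.81, 7.20 and 2.88 TPM in Th17 wild-type replicates and at 48.9, 142 and 34.8 TPM among the deficient ones, a log2 difference of 3.18 ± 0.59 (limma, adjusted p = 0.0238), and 2.59 ± 0.41 without replicate 2 (adjusted p = 0.00728). In Th1 it went from 2.55 ± 0.776 to 15.7 ± 5.23 TPM (log2 difference 2.20 ± 0.28, adjusted p = 0.000687; SD, n = 3). Nrros, which also binds latent TGF-beta, was higher in Th1 (1.44 ± 0.17, adjusted p = 0.000515). Bambi, a decoy receptor without a kinase, was lower in Th17, at 0.991 ± 0.164 against 2.52 ± 0.08 TPM (-0.83 ± 0.19, adjusted p = 0.0486). With no filter on low values the adjusted p in Th17 was 0.0611 for Lrrc32 and 0.097 for Bambi (limma). Of this list 1 of 4 tested genes was higher and 1 lower in Th17, with and without deficient replicate 2, and 2 of 3 were higher in Th1. Eng, the co-receptor that works with Acvrl1 in endothelium, was at 0.043 to 0.440 TPM in 11 libraries and at 2.98 TPM in Th17 deficient replicate 2. Lrrc32 is also 1 of 7 listed regulatory T cell markers. Of these, 1 of 5 tested was higher in Th17 (2 of 5 without replicate 2) and 2 of 5 in Th1, and Foxp3 passed in neither. Their sums overlapped, at 2798 to 5671 against 3727 to 4521 TPM in Th17 and 3095 to 5049 against 3871 to 4655 TPM in Th1.

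Of the other ligands, Inhba, a subunit of activin A, was higher in deficient cells of both lineages. It stood at 2.98, 2.04 and 1.66 TPM in Th17 wild-type replicates and at 11.1, 8.20 and 10.01 TPM among the deficient ones, where replicate 2 was the lowest of its group (log2 difference 1.75 ± 0.27, limma, adjusted p = 0.0144). In Th1 it went from 0.353 ± 0.138 to 2.67 ± 0.086 TPM (1.44 ± 0.16, adjusted p = 0.000384; SD, n = 3). Also in Th1, Bmp2 was higher, at 1.26 ± 0.150 against 0.039 ± 0.067 TPM (adjusted p = 0.00107), and Bmp7 lower, at 0.220 ± 0.052 against 1.52 ± 0.332 TPM (adjusted p = 0.00207). In Th1 Inhba, Bmp2 and Bmp7 entered the fit only through the group in which they were higher, and with no filter their adjusted p was 0.00257, 0.00215 and 0.00523. This made 1 higher of 2 tested in Th17, with and without deficient replicate 2, and 2 higher and 1 lower of 4 in Th1.

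For the storage and activation of latent TGF-beta, 2 of 2 tested genes were higher in Th1. Itgav, the alpha v integrin subunit that releases TGF-beta from its latent complex, went from 2.73 ± 1.08 to 14.5 ± 1.35 TPM (log2 difference 2.09 ± 0.23, limma, adjusted p = 0.000386). Furin, a protease that cleaves the TGF-beta precursor, went from 16.0 ± 3.93 to 36.7 ± 4.84 TPM (1.17 ± 0.21, adjusted p = 0.00329; SD, n = 3). In Th17 the adjusted p was 0.0782 for Itgav and 0.472 for Furin. Furin stood at 11.7, 11.2 and 10.3 TPM in Th17 wild-type replicates and at 11.3, 403 and 9.43 TPM among the deficient ones, so that it left the wild-type range upward in replicate 2 alone, as Tgfb1 did. Itgav stood at 3.37, 3.01 and 1.82 TPM in Th17 wild-type replicates and at 12.4, 70.9 and 9.13 TPM among the deficient ones, above wild type in all 3. Without replicate 2, 1 of these 2 genes passed in Th17.

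The lowest adjusted p among the 5 tested SMADs in Th17 was 0.34, for Smad5 (limma, log2 difference 0.66 ± 0.40). Without deficient replicate 2, 0 of the 5 passed as well, and their median log2 difference went from 0.41 to -0.065. In Th1, Smad2, a SMAD of TGF-beta and activin receptors, was higher, at 16.4 ± 1.59 against 10.6 ± 1.40 TPM (log2 difference 0.60 ± 0.16, limma, adjusted p = 0.0236; SD, n = 3). Smad3 stood at 54.8 TPM in Th17 deficient replicate 2, against 6.06 and 6.98 TPM in the other 2 libraries of the group.

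Cofactors and regulators of SMADs included 3 of 17 tested genes that were higher in Th17, and 6 higher and 1 lower of 17 in Th1. Without Th17 deficient replicate 2, 6 were higher and 1 lower in Th17, where 16.2% of 13321 genes passed in either direction. Pmepa1, a feedback inhibitor that is itself induced by TGF-beta, stood at 19.5, 21.9 and 20.6 TPM in Th17 wild-type replicates and at 65.1, 80.2 and 62.6 TPM among the deficient ones. All 3 deficient libraries were close together, and the log2 difference was 1.69 ± 0.20 (limma, adjusted p = 0.00639). In Th1 it went from 6.46 ± 0.887 to 35.6 ± 2.08 TPM (2.30 ± 0.16, adjusted p = 5.45e-05; SD, n = 3). Ski, a co-repressor of SMADs, was higher in Th1 (1.04 ± 0.17, adjusted p = 0.00228). Tgif1, another co-repressor, was higher in both, by 1.12 ± 0.23 in Th17 (adjusted p = 0.0346) and 0.97 ± 0.18 in Th1 (adjusted p = 0.00411).

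Among genes induced by TGF-beta, 4 of 15 tested were higher in Th17, and 7 were higher and 2 lower of 12 in Th1. Without Th17 deficient replicate 2, 5 were higher and 1 lower of 14 in Th17, to be read against the same 16.2%. Pmepa1 and Tgif1 belong to this list too. Cdkn2b, an inhibitor of the cell cycle, went from 0.370 ± 0.354 to 5.68 ± 1.18 TPM in Th17 (log2 difference 2.31 ± 0.28, limma, adjusted p = 0.00649) and from 1.69 ± 0.121 to 7.03 ± 1.21 TPM in Th1 (1.57 ± 0.17, adjusted p = 0.000375; SD, n = 3). Timp1, an inhibitor of matrix proteases, stood at 97.7, 123 and 153 TPM in Th17 wild-type replicates and at 856, 428 and 1209 TPM among the deficient ones (2.63 ± 0.39, adjusted p = 0.0126), with replicate 2 the lowest of its group. Klf10 was higher in Th1 (1.49 ± 0.18, adjusted p = 0.000574). Ahr, the aryl hydrocarbon receptor, was lower in Th1, at 0.447 ± 0.204 against 2.45 ± 0.347 TPM (-1.26 ± 0.18, adjusted p = 0.00108). Cdkn2b in Th17 and Ahr in Th1 entered the fit only through the group in which they were higher, and with no filter their adjusted p was 0.0248 and 0.00575. Many of these genes also respond to other signals.

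Genes induced by BMP went both ways, with 1 higher and 3 lower of 5 tested in Th17 (the same counts without deficient replicate 2) and 1 higher and 1 lower of 4 in Th1. Id3, an inhibitor of basic helix-loop-helix factors, stood at 407, 323 and 390 TPM in Th17 wild-type replicates and at 124, 92.3 and 135 TPM among the deficient ones, a log2 difference of -1.68 ± 0.21 (limma, adjusted p = 0.00752). Th1 wild-type libraries held it at 439, 366 and 376 TPM and deficient ones at 111, 98.8 and 161 TPM (-1.69 ± 0.19, adjusted p = 0.000459). Id3 thus had the same direction as Acvrl1 in both lineages, but with wild-type libraries close together, unlike Acvrl1. Hey1, a transcriptional repressor, was lower in Th17, at 0.307 ± 0.225 against 2.59 ± 0.599 TPM (-1.46 ± 0.23, adjusted p = 0.0147). It entered the fit only through wild type, and its adjusted p with no filter was 0.0363. Id1 was higher in Th17, at 15.8 ± 4.49 against 5.45 ± 0.925 TPM (1.36 ± 0.30, adjusted p = 0.0404), and with no filter its adjusted p was 0.0671. Id2 was higher in Th1, at 1591 ± 257 against 534 ± 274 TPM (1.68 ± 0.31, adjusted p = 0.00378; SD, n = 3).

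**Figure D5:**
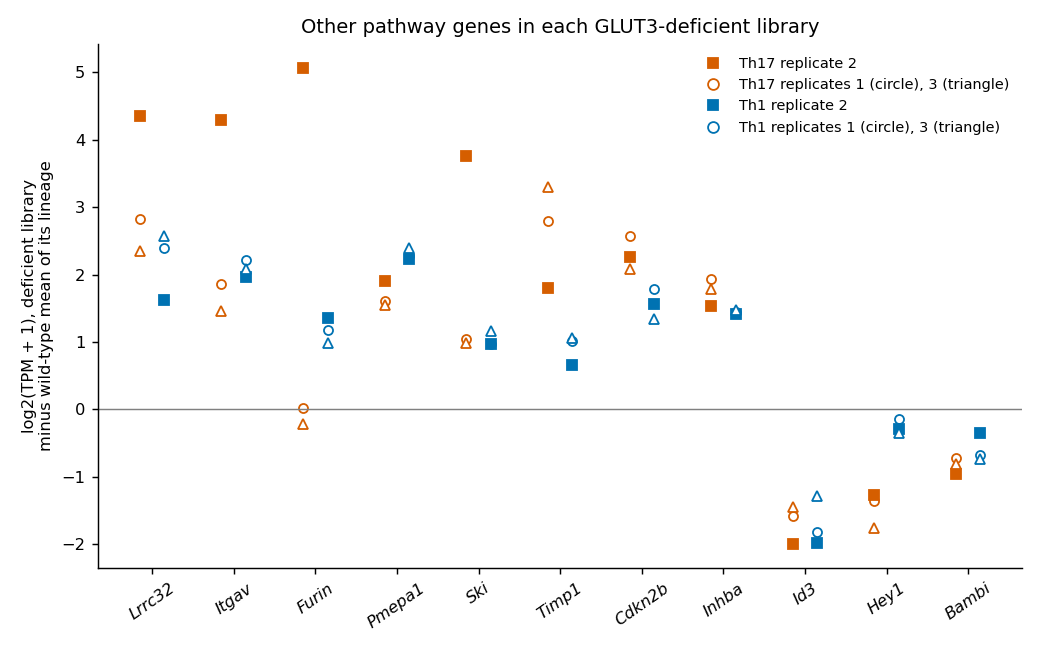
Differences of log2(TPM + 1) of each deficient library from the wild-type mean of its lineage for 11 other pathway genes, with Th17 in orange and Th1 in blue and replicate 2 as filled squares. Th17 replicate 2 lies far above the other libraries for Furin, Itgav and Ski, whereas Pmepa1, Inhba, Cdkn2b, Id3, Hey1 and Bambi are on the same side of 0 in all 3 Th17 libraries with little spread.

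Between lineages in wild type, 7 of the 49 tested pathway genes were higher in Th17 and 1 lower, where 1.85% of 14579 genes were higher and 1.78% lower. Pmepa1 was 1.54 higher in Th17 (limma, adjusted p = 0.000212), Inhba 1.24 (adjusted p = 0.00434) and Id1 2.01 (adjusted p = 0.00135) on the log2 scale. In deficient cells 11 were higher in Th17 and 2 lower, where 3.35% were higher and 2.56% lower. Bmp2, among the 2 lower, entered the fit only through the Th1 deficient libraries, which fixes its direction. How many other genes entered through a single group was not counted for the lineage comparisons. Without Th17 deficient replicate 2, 11 of 48 were higher and 4 lower, where 4.34% were higher and 4.15% lower. The median of all genes tested was 0.14 and 0.13 in these lineage comparisons with TPM as deposited, and -0.004 and -0.036 after median-of-ratios scaling, so lineage differences of that size depend on the scaling.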

How the data were processed

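Total RNA of 12 libraries was turned into cDNA with a SMART-Seq kit and into single-end libraries with Nextera XT, per the labels' protocols, which leaves the strand unmarked. GRCm38.p6, STAR 2.7.2b, DESeq2 1.24.0, featureCounts 1.6.4, cutadapt and bcl2fastq 2.20.0.422 are listed, without their roles, in the submitters' processing notes. The authors deposited 1 table of TPM per lineage, with decimal commas and exon lengths. TPM multiplied by exon length came out whole within 0.02 reads for 100.0% of values, which gave reads per gene. Counting error alone puts 3 reads of a gene with 1 kb of exon at the limit of detection, and copies made by PCR are not independent.

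The 10 genes and all gene lists were chosen with earlier results of these data known. Groups came from the sample titles. A gene entered a fit if 3 or more of its libraries reached 1 TPM, and log2(TPM + 1) was then modeled with limma 3.58.1 under R 4.3.3 (moderated variance with trend, two-sided, Benjamini-Hochberg over all genes tested, threshold 0.05). No p is given for Acvrl1 in any comparison, also between lineages, where a test of all 10 genes had been planned. Genotypes were compared within each lineage on 6 libraries, and lineages and the interaction in 1 model of 12. The steps were tested on simulated data. Alternatives were offsets of 5 and 0.25 TPM, no filter, median-of-ratios scaling, the replicate number as a block, voom on recovered reads (chosen after seeing the data), all 12 libraries, and each library left out.

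Genes are named as follows: the 10 members, Slc2a3, up to 4 genes with the smallest adjusted p of each list and comparison, the 5 genes with the highest r with Acvrl1, and the nearest expressed gene on each side of it. Smad3, Smad5, Eng, Furin, Itgav and Pecam1 in Th17, Igkc in Th1, Timp1 in the interaction, Csf1r, Adgre1, Cdh5, Emcn and Robo4 were named after their values were seen. So were Nrros and Bmp2 in the interaction, Eomes in Th1, and Foxp3. Of the members, 9 were looked up in the promoter table and 7 matched. Acvrl1 and Tgfbr3 had no window there, and Smad7 was not looked up. Same-numbered libraries of both genotypes deviated from their group means together in Th17, with correlations of 0.14, 0.41 and 0.23. Those of both lineages in wild type did so too, with 0.72, 0.26 and 0.53. Unlike-numbered libraries lay at -0.41 to 0.11 in the first comparison and at -0.61 to 0.28 in the second. There Th17 replicate 2 was no closer to Th1 replicate 2 (0.26) than to Th1 replicate 3 (0.28). The numbers may thus pair the libraries, with no other evidence for it. The main fits have no block, and the block is an alternative.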

Additional observations from a re-analysis of the deposited data

How the results depend on the processing

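The spread in Th17 rests largely on GLUT3-deficient replicate 2. Genes called by genotype in Th17 numbered 1009, 2158 (1034 higher and 1124 lower) without that library, 109 to 2158 with each library left out, and 2933 in the fit of all 12 libraries. Of the 8 tested genes other than Acvrl1, 0 passed in Th17, 1 with an offset of 0.25 TPM, with median-of-ratios scaling, with voom and with the replicate block, 3 in the fit of all 12 libraries, and 0 to 1 with each library left out. The 1 gene was Tgfbr1, with adjusted p-values of 0.00443 to 0.212 over its alternatives. In Th1, genes called numbered 4220, 2568 in the fit of all 12 libraries and 2594 to 4587 with each library left out, and 5 of 6 members passed, 3 with median-of-ratios scaling, 0 in the fit of all 12 libraries and 2 to 4 with each library left out. Leaving out a Th1 deficient library takes Tgfbr1 below the filter, so it could not be fitted there. Likewise Acvrl1 could not be fitted in Th17 without any 1 wild-type library. The interaction was called for 93 genes, 59 with an offset of 0.25 TPM and 21 to 171 with each library left out. The lineages differed in 529 genes in wild type (270 higher and 259 lower in Th17, 215 and 368 after median-of-ratios scaling), with 309 to 403 after leaving out each library, and in 861 genes in deficient cells (488 and 373, 467 and 564 after that scaling), with 449 to 1219. The 1 member called between lineages in deficient cells, Acvr2a, became 0 with an offset of 5 TPM, and 0 to 2 members passed with each library left out. The cause of these shifts was not tested.

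Directions of members that changed did so when a library was left out. The log2 difference of Tgfb1 by genotype in Th17 was -0.15 without deficient replicate 2 and -0.15 to 2.16 over the libraries left out, and that of Bmpr1a in Th1 was -0.069 without wild-type replicate 2 (-0.069 to 0.47). In the interaction, leaving out Th17 deficient replicate 2 gave -0.10 for Bmpr1a (range -0.10 to 0.69), -0.45 for Tgfbr2 (-0.45 to 0.56), -0.20 for Tgfbr3 (-0.20 to 1.47) and -0.69 for Tgfb1 (-0.69 to 1.61), and Tgfbr2 was -0.10 and -0.14 without Th17 wild-type replicate 3 and Th1 wild-type replicate 1. Between lineages in deficient cells the same library gave -0.32 for Tgfbr3 (-0.32 to 1.35) and -0.12 for Tgfb1 (-0.12 to 2.18). In wild type Smad7 was -0.0091 without Th17 replicate 1 (-0.0091 to 0.31) and Tgfbr3 0.047 without Th17 replicate 3 (-0.28 to 0.047). None of these reversed values had passed the test. With the replicate block, genes called numbered 1399 in Th17, 4479 in Th1, 85 for the interaction, 580 between lineages in wild type and 960 in deficient cells, and the call of Tgfbr1 in Th17 was the only one of a member that it changed. The same-numbered libraries did not pair in Th1 by genotype, with correlations of 0.16, 0.21 and -0.07, nor between lineages in deficient cells, with 0.22, -0.04 and -0.19. The planned edgeR test was not run, since the files hold no counts, and voom on the recovered reads took its place.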
